A study of Mus musculus with 23 samples.

Results

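Messenger RNA of 10 genes of the integrated stress response and the unfolded protein response was followed through the conversion of a mouse mesenchymal line into fat cells. The genes were Atf4, Atf3, Ddit3, Trib3, Asns, Chac1, Sesn2, Hspa5, Xbp1 and Fgf21. They were chosen by name, for what they are known to do, and 10 of 10 were found by symbol among the 24029 genes of the deposited expression table. C3H10T1/2 is an established line of mesenchymal stem cells from the C3H strain, and no group carried an engineered allele. Per the labels' protocols, cells of every group were seeded at 70% confluency and received 8.3 nM human BMP7, a growth factor that favours the brown fat lineage, for 3 days. Day 0 is that state, called pre-adipocytes by the submitters. Day 7 cells, called mature adipocytes, had been given 5 uM dexamethasone and 0.5 mM IBMX until day 2, and 0.12 ug/ml insulin, 1 uM of a compound labelled Rosi and 1 nM T3 throughout.

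RNA of each day went into 1 library built by standard means (Std) and 1 built by TELP, a sensitive library method that the series set out to assess, which carries the label N9. For day 7 there are TELP libraries N9_ss and T18 as well. What N9, ss and T18 stand for is not said in the labels. Every one of these 6 groups is 1 library, and nothing says whether the libraries of a day shared a culture, so no difference below has a replicate check. Values are RPKM, reads scaled to gene model length and to the read total. A gene was tested where its mean over the libraries compared was at least 1 RPKM, and called higher or lower at a difference of at least 1 in log2(RPKM + 1), a scale that understates the change of genes with low values.

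The integrated stress response begins with kinases that phosphorylate the translation factor eIF2 alpha when amino acids run short, when unfolded proteins build up in the endoplasmic reticulum (ER), or upon other stresses. General protein synthesis then slows, while translation of Atf4 mRNA increases, and the ATF4 protein switches on genes of amino acid supply and of stress adaptation. The unfolded protein response adds the ER sensors IRE1, which splices Xbp1 mRNA, and ATF6, which induces chaperones such as BiP, the product of Hspa5. Gene-level RPKM shows neither the translation of Atf4 nor the splicing of Xbp1. In fat, a tissue that secretes much protein, FGF21 is known as a hormone that is induced by cold and by stress.

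The response elements through which these factors act are given first, although they were searched with the calls already known. RefSeq start-site windows of build GRCm38.p6, from 250 bases before to 50 bases after the annotated gene start, matched 10 of 10 genes. The deposited values were made on mm9, so these coordinates are not those of the expression table. Positions are counted from 0 at the first annotated base, with negative numbers upstream. The C/EBP-ATF response element core, the site of ATF4 with its C/EBP partners, was searched on both strands as TGATGNAA, where N is any base. It was found in 5 of the 10 windows, against 3.97% of all 32851 windows. The ER stress response element, bound by ATF6 together with NF-Y, was searched as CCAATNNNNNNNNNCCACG and was found in Hspa5 alone among the 10, against 0.119% of all windows. The 10 genes were chosen by name for known roles in these responses, so neither comparison is an independent test of the elements.

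The stretches around these matches are given 5′ to 3′ on the strand of the gene, with the matched bases in capitals, for the genes whose values are described after them. In Atf3, Trib3, Chac1 and Fgf21 the element reads in reverse, so that its complement is printed.
Atf3, chr1:191183416-191183463, minus strand, match from -110 to -103: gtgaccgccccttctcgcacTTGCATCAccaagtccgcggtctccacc
Trib3, chr2:152344035-152344066, minus strand, match from 14 to 21: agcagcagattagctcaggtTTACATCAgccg
Asns, chr6:7693205-7693252, minus strand, match from -23 to -16: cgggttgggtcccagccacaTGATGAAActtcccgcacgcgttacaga
Chac1, chr2:119351029-119351076, plus strand, match from -193 to -186: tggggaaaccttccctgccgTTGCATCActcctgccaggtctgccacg
Fgf21, chr7:45615602-45615649, minus strand, match from -139 to -132: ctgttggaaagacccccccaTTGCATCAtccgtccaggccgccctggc
Hspa5, chr2:34772005-34772063, plus strand, match from -65 to -47: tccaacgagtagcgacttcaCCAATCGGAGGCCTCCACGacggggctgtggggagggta

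Atf3, Chac1 and Fgf21 share the same 8 matched letters, TTGCATCA, and Trib3 and Asns each carry another variant. The matches lie upstream of the gene start in 4 of the 5 genes, and just downstream of it in Trib3. The cyclic AMP response element TGACGTCA, the XBP1-bound element TGACGTGG and the second ER stress element ATTGGNCCACG were found in 0 of the 10 windows, against 1.79%, 0.676% and 0.0365% of all windows. A match is a description of letters, not of binding, and the windows of Atf4, Ddit3, Sesn2 and Xbp1 held none of the 5 elements.

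**Figure D1:**
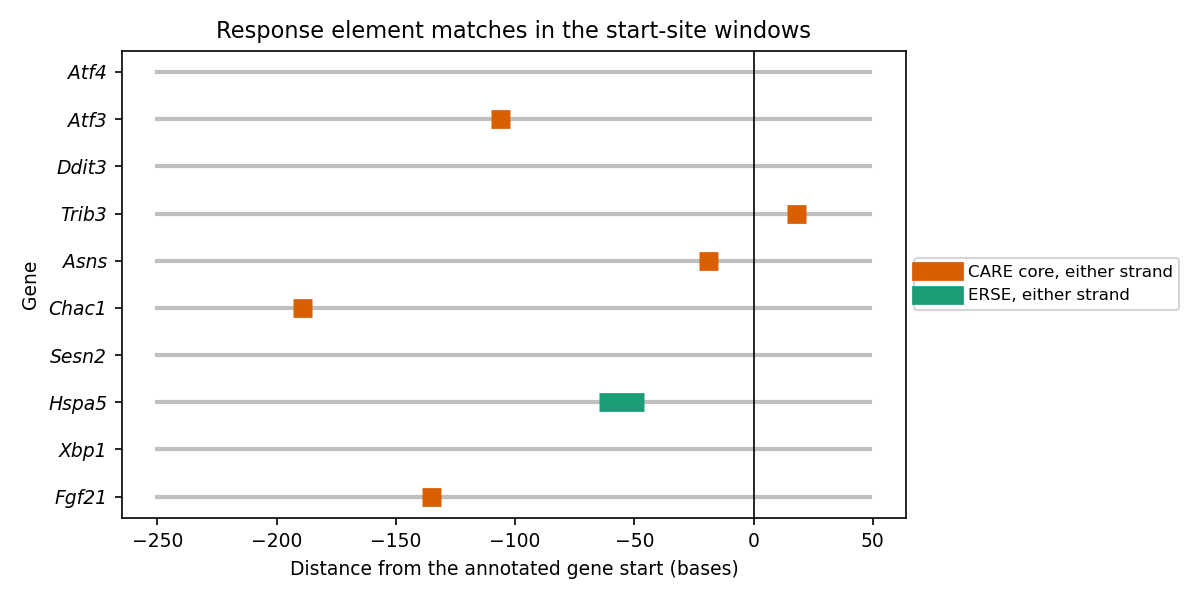
Distance of each response element match from the annotated gene start (horizontal axis, bases) in the start-site windows of the 10 genes (vertical axis). Grey lines are the windows, orange boxes the C/EBP-ATF response element core and the green box the ER stress response element; 5 genes carry the first and Hspa5 the other.

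From day 0 to day 7 the 10 genes did not move as a block. In the Std libraries 3 were called higher (Trib3, Asns and Fgf21) and 0 lower, where 8.22% of all 11312 tested genes were called higher and 6.53% lower. In the TELP N9 libraries 6 were called higher (Atf3, Ddit3, Trib3, Asns, Xbp1 and Fgf21) and 0 lower, where 13.9% of all 11360 tested genes were called higher and 29.9% lower. All 10 passed the filter on low values in both comparisons, but Atf3, Trib3 and Fgf21, below 1 RPKM at day 0, did so only through day 7 and could hardly be called lower. Trib3, Asns and Fgf21 were called higher in both library types, as were 7.33% of the 10988 genes tested in both, while 6.03% were called lower in both. Of these 3 genes, Asns alone passed the filter by its day 0 level, and at a mean of at least 5 RPKM the count was 1. The median difference of the 10 genes was 0.48 in the Std pair and 1.32 in the TELP N9 libraries on the log2(RPKM + 1) scale, beside -0.18 and -0.45 over all tested genes.

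**Figure D2:**
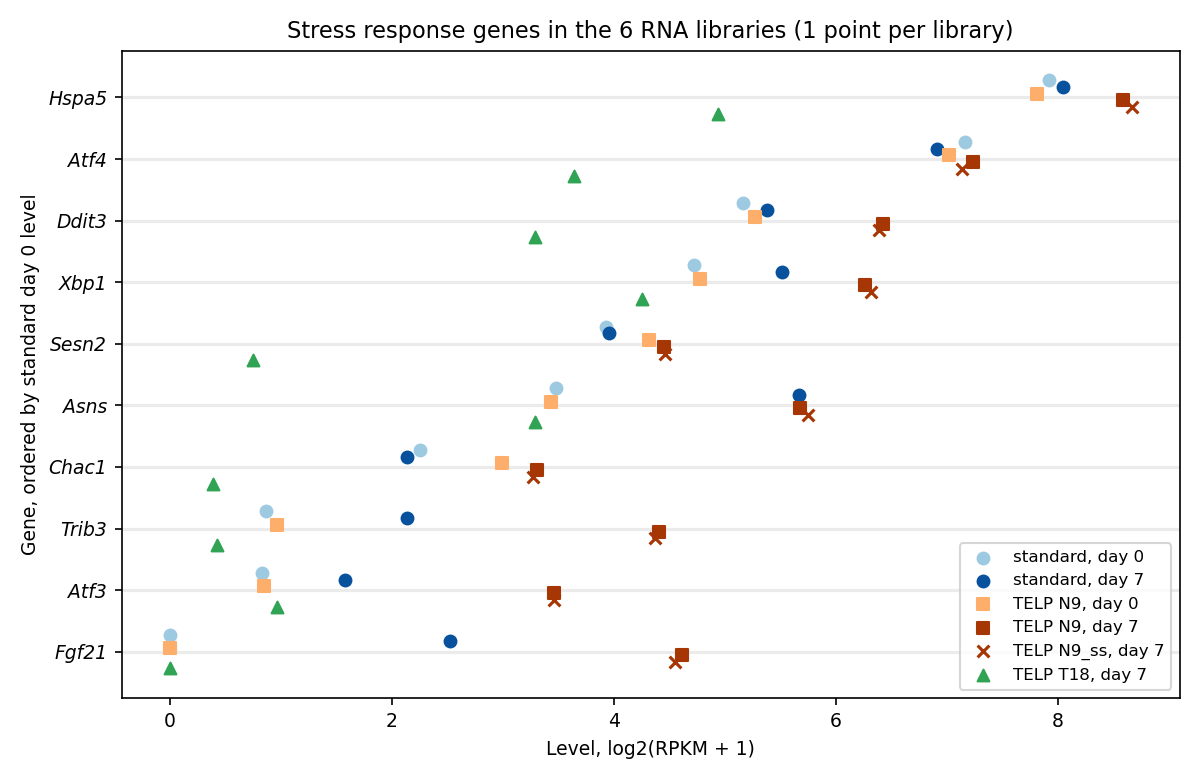
Level of each gene in log2(RPKM + 1) (horizontal axis), 1 point per library, with genes ordered by their Std day 0 level. Circles are standard (Std), squares TELP N9, crosses TELP N9_ss and triangles TELP T18 libraries. The day 0 points of most genes lie close together, and those of Chac1 lie farthest apart. In Asns, Trib3, Atf3, Xbp1 and Fgf21 the day 7 points other than T18 lie right of day 0. In Ddit3 and Hspa5 they do so too, with the Std day 7 point close to those of day 0. The T18 points of 8 genes lie left of all others.

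Marker genes of fat cells were far higher at day 7. Of 8 adipocyte markers, 7 were called higher in both library types, and their summed level went from 40.6 to 13339 RPKM in the Std pair and from 31.7 to 30399 RPKM in the TELP N9 libraries. Leptin (Lep) was listed at 0 throughout. The 5 preadipocyte markers summed to 321 RPKM before and 213 RPKM after conversion in the Std libraries, but to 341 and 47.1 RPKM in the TELP N9 libraries. The Std and TELP N9 day 7 libraries therefore differed in both marker sums, beside the larger stress gene differences of TELP N9, and the part of the marker difference in these was not tested. Macrophage markers summed to between 0.489 and 4.70 RPKM. Cd68 carried that sum, from 1.03 to 1.82 RPKM in the Std and from 0.423 to 4.70 RPKM in the TELP N9 libraries, where it was called higher, while Ptprc, Emr1, Csf1r and Itgam were each below 0.1 RPKM in all libraries. Endothelial markers summed to 11.3 and 9.58 RPKM at day 0 and to 1.40 RPKM and 0 at day 7, nearly all of it at day 0 from Tek, with Pecam1, Cdh5 and Kdr each below 0.2 RPKM. The part of either in the stress gene values was not tested. In bulk RNA fewer cells of a type and less RNA per cell cannot be told apart.

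Of the transcription factors, Atf4, the central activator of the integrated stress response, stayed near its day 0 level as deposited. Under the other scalings given below, its TELP N9 log2 difference ran from -0.29 to 0.73. Its level was 143 RPKM on day 0 and 119 RPKM on day 7 in the Std libraries, and at 128 and 150 RPKM in the TELP N9 libraries. The 4 values lie within a narrow band and the library types moved in opposite directions (-0.25 and 0.22 on the log2 scale), below the size of a call in both. At every one of these points Atf4 mRNA was above at least 98% of all genes in its library.

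Atf3, a stress-inducible repressor and a target of ATF4, was near the floor at day 0. It was listed at 0.784 and 0.797 RPKM at day 0 in the Std pair and TELP N9 libraries, and at 1.99 and 10.0 RPKM at day 7. The day 7 libraries exceeded the day 0 libraries in both types, but only the TELP N9 difference reached the size of a call (0.74 and 2.62 on the log2 scale). Whole reads could be recovered for this gene from the spacing of low values, and in the smallest whole-number set they were 10 and 25 in the Std pair and 16 and 49 in the TELP N9 libraries. Corrected for depth, the read ratio of day 7 to day 0 was 2.54 (95% exact interval 1.18 to 5.92) in the Std pair and 12.6 (7.04 to 23.7) in the TELP N9 libraries. All such intervals here cover counting error only, since reads without molecular identifiers are not independent molecules, and they compare libraries, not conditions.

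Ddit3, which encodes CHOP, the factor that links prolonged ER stress to cell death, also differed by library type. It stood at 34.8 and 40.7 RPKM at day 0 and day 7 in the Std libraries, and at 37.6 and 84.8 RPKM in the TELP N9 libraries. Both day 0 libraries and the Std day 7 library lay close together, and the TELP N9 day 7 library stood apart above them (log2 differences 0.22 and 1.15). Ddit3 overlaps the annotated genes Mars1 and Mbd6, and how the counting treated strand is not given in the sources used here, so reads of these genes cannot be told apart. The methionyl-tRNA synthetase gene listed as Mars stood at 21.3 and 34.4 RPKM at the 2 days in the Std libraries and at 18.9 and 30.8 RPKM in the TELP N9 libraries.

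Among the targets of ATF4, Trib3 changed by the largest ratio of the 9 genes with a value above 0 at day 0 in the TELP N9 libraries. Trib3 encodes a pseudokinase that is induced by ATF4 and CHOP and is known to dampen both ATF4 and insulin signalling through AKT. Its day 0 and day 7 levels were 0.827 and 3.40 RPKM in the Std libraries, and stood at 0.956 and 20.1 RPKM in the TELP N9 libraries. Both day 7 values lay above both day 0 values, and the TELP N9 day 7 library was the highest by far. Recovered reads were 22 and 89 in the Std pair and 40 and 205 in the TELP N9 libraries. The read ratio of day 7 to day 0 was 4.11 (95% exact interval 2.55 to 6.88) in the Std pair and 21.1 (15.0 to 30.4) in the TELP N9 libraries. These intervals do not overlap, but they cover counting error only, and the TELP N9 day 0 reads were rounded.

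Asns, which encodes asparagine synthetase, had the smallest gap between the library types among the 10 genes as deposited, though not under equal totals (2.27 in Std and 1.80 in TELP N9). Its level was 10.2 RPKM on day 0 and 49.8 RPKM on day 7 in the Std libraries, and at 9.78 and 50.05 RPKM in the TELP N9 libraries. The 2 days separated by about the same amount in each type, with log2 differences of 2.19 and 2.24. The read ratios were 4.91 (95% exact interval 4.28 to 5.65) and 5.11 (4.46 to 5.87), from 252 and 1219 recovered reads in the Std pair and 382 and 475 in the TELP N9 libraries. Between the 2 day 7 libraries, TELP N9 to Std, the read ratio of Asns was 1.00 (0.901 to 1.12).

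Chac1 and Sesn2, which carry out later steps of the response, showed no call between the days. Chac1 encodes an enzyme that breaks down glutathione, and it was at 3.76 and 3.41 RPKM at day 0 and day 7 in the Std libraries and at 6.98 and 8.91 RPKM in the TELP N9 libraries. The order of these 4 values followed the library type and not the day, and the read ratios of day 7 to day 0 were 0.905 (95% exact interval 0.640 to 1.28) and 1.28 (0.955 to 1.69). Sesn2 encodes sestrin 2, a leucine sensor that restrains mTORC1, and it was at 14.2 and 14.5 RPKM in the Std libraries and at 19.0 and 20.9 RPKM in the TELP N9 libraries. Its read ratios of day 7 to day 0 were 1.02 (0.897 to 1.15) and 1.10 (0.961 to 1.26). As deposited, both intervals included 1. They do not cover scaling, and under the other scalings given below the TELP N9 log2 difference of Sesn2 ran from -0.37 to 0.62. Of the family members, Sesn1 stood below its day 0 level in both types (20.8 to 11.4 and 17.8 to 6.59 RPKM), as did Sesn3 (48.7 to 27.3 and 61.2 to 5.02 RPKM), each called lower in the TELP N9 libraries alone. Chac2 differed by -0.05 and -0.09 on the log2 scale.

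Of the ER genes, Hspa5, the chaperone BiP that also holds the ER sensors inactive, had the highest level of the 10 genes in every library. Its level was 241 RPKM on day 0 and 264 RPKM on day 7 in the Std libraries, and at 224 and 384 RPKM in the TELP N9 libraries. The TELP N9 day 7 value was the highest of the 4, but no difference reached the size of a call (0.13 and 0.78 on the log2 scale). Hspa5 overlaps the annotated gene Rabepk, whose reads cannot be told apart without strand.

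Xbp1, whose mRNA is the substrate of IRE1 and encodes a factor for ER expansion, was above its day 0 level in both types. It went from 25.3 to 44.6 RPKM in the Std pair and from 26.4 to 75.5 RPKM in the TELP N9 libraries. Both day 7 values exceeded both day 0 values, and the log2 difference of 0.79 in the Std libraries was below the size of a call while that of 1.48 in the TELP N9 libraries was above it.

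Fgf21, the hormone at the far end of the response, was listed at 0 in both day 0 libraries, at 4.74 RPKM in the Std day 7 library and at 23.5 RPKM in the TELP N9 day 7 library. No ratio is given against these zeros, since an exact 0 in such a table can also be a failed estimate. The Fgf21 differences used for its calls, 2.52 in Std and 4.61 in TELP N9, depend on the 1 added to each value. The chaperone gene Canx, which all cells use, was likewise at 0 in the TELP N9 day 0 library while it stood at 168 and 169 RPKM in the Std libraries. Both day 7 values of Fgf21 were above 0 and differed from each other by 4.95 times.

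Within a library, levels per length could be ordered. In the Std day 0 library the order ran Hspa5, Atf4, Ddit3, Xbp1, Sesn2, Asns, Chac1, Trib3, Atf3 and Fgf21. At day 7 it ran Hspa5, Atf4, Asns, Xbp1, Ddit3, Sesn2, Fgf21, Chac1, Trib3 and Atf3 in the Std library, and Hspa5, Atf4, Ddit3, Xbp1, Asns, Fgf21, Sesn2, Trib3, Atf3 and Chac1 in the TELP N9 library. With 1 library per group, the spread that would separate neighbours in these orders is not known. As a rank among all genes of a library, which does not depend on the read total, Asns went from a percentile of 76.3 to 94.9 in the Std libraries. Trib3 went from 52.9 to 62.4 in percentile in the Std pair and from 52.7 to 88.2 in the TELP N9 libraries.

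A limma fit of log2(RPKM + 1) over the 4 Std and TELP N9 libraries, with library type as a block, was the one test run across all genes. It has 1 residual degree of freedom and takes its spread from library types, not from cultures. Asns was the single gene of the 10 to pass, with limma's adjusted p = 0.0497 (Benjamini-Hochberg over 11474 genes), higher in both library types. By this test 1.41% of all genes were higher and 0.209% lower at day 7. Without the intensity trend, a setting added after seeing the data, the adjusted p of Asns in limma was 0.0723 and 0 of the 10 genes passed. The unadjusted limma p was 0.000806 for Asns, 0.00336 for Fgf21, 0.0163 for Trib3, 0.0206 for Xbp1 and 0.0400 for Atf3, and 5 of the 10 genes were below 0.05, as were 3137 of all genes. Fgf21 followed with limma's adjusted p = 0.0868 and Trib3 with 0.134, and Atf4 had 0.979.

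**Figure D3:**
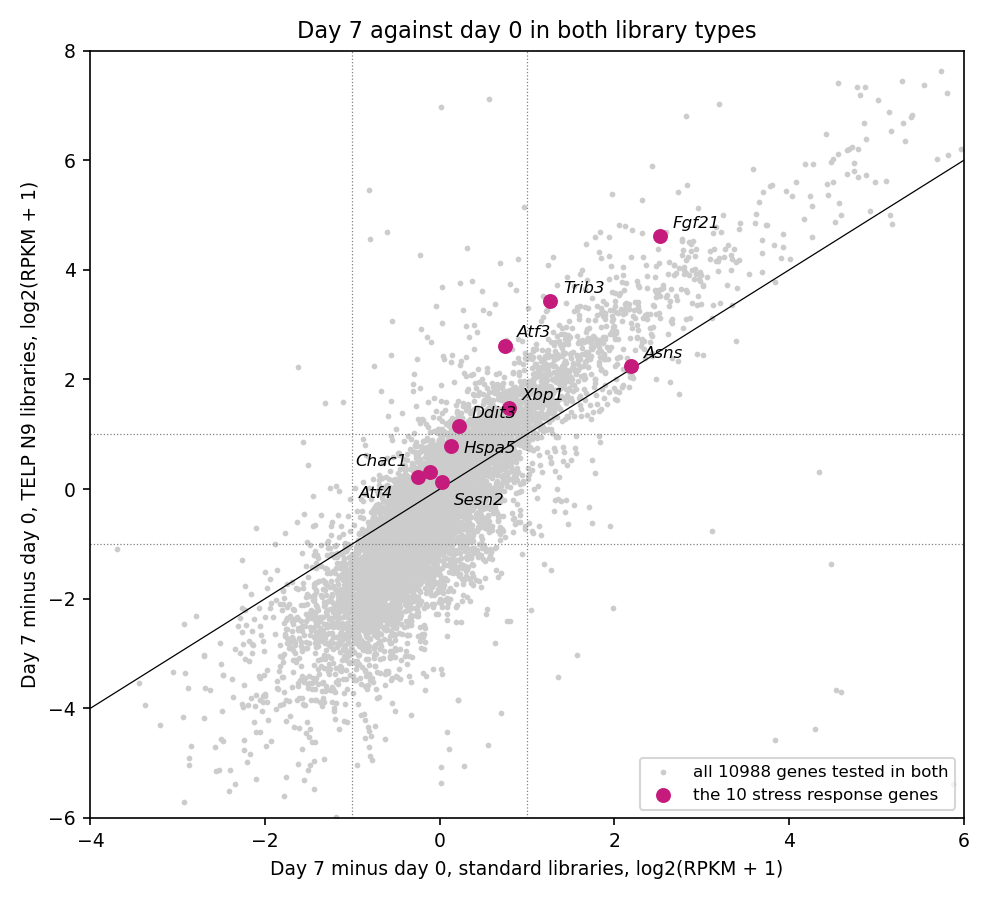
Day 7 minus day 0 difference in log2(RPKM + 1) in the Std libraries (horizontal axis) and in the TELP N9 libraries (vertical axis) for the 10988 genes tested in both, with the 10 genes in magenta; dotted lines mark the size of a call, the solid line equality, and 65 genes lie outside the axes. Asns sits on the line of equality and the other 9 genes lie above it.

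The TELP N9 difference was the larger in 10 of the 10 genes, by between 0.05 (Asns) and 2.17 (Trib3) on the log2 scale as deposited. Under equal totals it was the larger in 6 of 10, and the smaller in Asns (1.80 against 2.27), Sesn2, Atf4 and Chac1. The share of all genes with the larger difference in TELP N9 was not computed. Over all tested genes, TELP N9 had 13.9% called higher and 29.9% lower, beside 8.22% and 6.53% in Std. Both types were closer at day 0. There, 0 of the 7 tested genes were called between TELP N9 and Std, where 2.2% of all 11277 tested genes were called higher and 0.718% lower, and the median difference of those 7 genes was 0.06. Atf3, Trib3 and Fgf21 were below the filter. At day 7, 5 genes (Atf3, Ddit3, Trib3, Chac1 and Fgf21) were called higher in TELP N9 and 0 lower, where 7.51% of all 11044 tested genes were called higher and 17% lower. The read ratio of TELP N9 to Std at day 7 was 5.93 for Trib3 (95% exact interval 4.61 to 7.70), 5.05 for Atf3 (3.06 to 8.53), 2.62 for Chac1 (1.83 to 3.73) and 1.44 for Sesn2 (1.24 to 1.67). At day 0 the same ratio was 1.16 for Trib3 (0.671 to 2.04) and 1.02 for Atf3 (0.434 to 2.51), but 1.86 for Chac1 (1.42 to 2.45) and 1.33 for Sesn2 (1.20 to 1.48). Chac1 and Sesn2 were thus above the Std library in TELP N9 at both days, and Trib3 and Atf3 at day 7. Over all genes the share of higher calls at day 7 went from 30.7% to 47.5%, 5.60% and 48.3% when scaled by median of ratios, to equal totals or by quantiles, and at day 0 from 75.4% to 62.0% under equal totals. At day 7 Atf3, Trib3 and Fgf21 were called higher in TELP N9 under each of them, with 1.41, 1.70 and 1.47 under equal totals. Ddit3 (0.28) and Chac1 (0.57) lost the call there, Ddit3 (0.94) also under quantile normalization, and Xbp1 (1.00) gained it under median of ratios. Sesn2 stood below the Std library under equal totals (-0.24), as did Atf4, Asns, Hspa5 and Xbp1.

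The libraries differed in depth and in composition beside these values. Relative to Std day 0, the depth read from the spacing of low values was 0.985 in Std day 7, 1.57 in TELP N9 day 0, 0.382 in TELP N9 day 7, 0.400 in N9_ss and 0.331 in T18, although that of TELP N9 day 0 rests on 8 of 3396 low genes, that of TELP N9 day 7 on 21 of 1931 and that of N9_ss on 20 of 1950. The 10 most abundant genes held 7.56% and 9.80% of summed RPKM in the Std day 0 and day 7 libraries, 15.2% and 32.8% in those of TELP N9, and 79.8% in T18. The N9_ss library was no replicate of N9. A single depth ratio of 1.05 was shared by 82.7% of their 3609 low genes, and the 10 stress genes differed between them by factors of 0.931 to 1.05.

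Because composition differed, the members' differences were also computed after median of ratios scaling, scaling to equal totals and quantile normalization. These moved the median of all genes in the TELP N9 comparison of days from -0.45 to -0.01, -0.96 and -0.07, and the share of calls that were higher from 31.8% to 51.6%, 17.7% and 48.4%. In the Std comparison only median of ratios moved that share by over 10 points, from 55.7% to 68.6%. Trib3, Asns, Atf3 and Fgf21 were called higher in the TELP N9 libraries under each scaling, Trib3 with 3.41 to 3.80 and Asns with 1.80 to 2.73. Of these, Atf3, Trib3 and Fgf21 passed the filter only through day 7. Values scaled to equal totals were larger than RPKM before 1 was added, so low values were damped less there. Fgf21, listed at 0 at day 0, went from 4.61 to 5.36 in that setting, and both values depend on the added 1. Ddit3 (0.65) and Xbp1 (0.99) lost the call under equal totals, and Hspa5 (1.29) gained it under median of ratios. Atf4, Chac1 and Sesn2 turned below 0 in TELP N9 under equal totals (-0.29, -0.15 and -0.37), Atf4 also under quantile normalization (-0.01), and Chac1 turned above 0 in the Std libraries under median of ratios (0.04). Under median of ratios the same 3 genes rose to 0.73, 0.77 and 0.62 in TELP N9, below the size of a call. Relative to the median of all genes, each of the 10 was higher in the TELP N9 libraries at day 7 under each scaling.

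**Figure D4:**
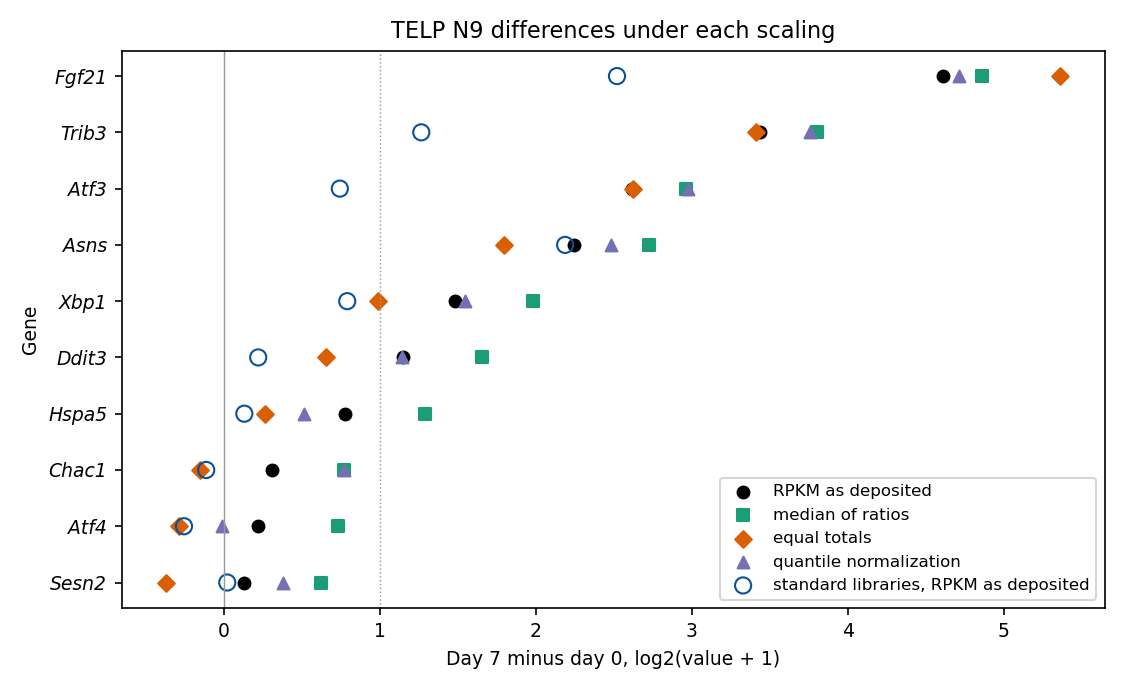
Day 7 minus day 0 difference of each gene in the TELP N9 libraries (horizontal axis, log2 of value + 1) as deposited and under 3 other scalings, with the Std libraries as open circles; the dotted line marks the size of a call. Fgf21, Trib3, Atf3 and Asns stay right of it in every TELP N9 setting, while Atf4, Chac1 and Sesn2 lie on both sides of 0.

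At day 7 the T18 library held less of each stress gene than N9. All 10 were called lower, with a median of -3.36 on the log2 scale, where 83.4% of all 9753 tested genes were called lower, 0.841% higher, and the median was -1.77. Atf4 was at 11.5 RPKM in T18, Hspa5 at 29.7, Xbp1 at 18.1, Ddit3 at 8.80, Asns at 8.76, Atf3 at 0.947, Sesn2 at 0.685, Trib3 at 0.341 and Chac1 at 0.307 RPKM, and Fgf21 was listed at 0. Trib3 rested on 3 recovered reads and Chac1 on 2, with read ratios to N9 of 0.0169 (95% exact interval 0.00346 to 0.0501) and 0.0345 (0.00409 to 0.130), beside 0.175 for Asns (0.135 to 0.225). Most of the T18 library's summed RPKM lay in 10 genes, as given above, and the part of this in the lower values was not tested. Median of ratios and quantile normalization brought the share of higher calls over all genes from 1.00% to 39.7% and 44.5% and the median of all genes to -0.13 and -0.05, and Xbp1 then stood at 0.13 and 0.17 above N9, while Sesn2 stayed at -2.12 and -1.98 and Trib3 at -2.59 and -2.52. In rank within its library, Xbp1 was at the 96.7th percentile in T18 and at 96.3 in N9, whereas Trib3 was at 59.2 and 88.2.

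The other genes of these pathways were counted in 8 lists, whose counts are for calls in both library types unless said otherwise. Among amino acid synthesis and transport targets of ATF4, 6 of 19 tested genes were called higher and 0 lower, beside 7.33% and 6.03% over all genes, with medians of 0.44 in the Std pair and 0.23 in the TELP N9 libraries. The glutamine transporter gene Slc1a5 differed most, from 7.94 to 86.2 RPKM in the Std pair and from 8.54 to 126 RPKM in the TELP N9 libraries (limma's adjusted p = 0.027). Gpt2, the mitochondrial alanine aminotransferase, followed with 2.18 and 2.04 on the log2 scale, Cth, the enzyme that makes cysteine from cystathionine, with 2.16 and 1.86, and Psat1 of serine synthesis with 1.24 and 1.79. Cth, below 1 RPKM at day 0 in both types, passed the filter only through day 7. The 2 others were Aldh1l2 and Mthfd2 of mitochondrial folate metabolism. Slc1a5, Gpt2, Cth and Psat1 kept the call under each scaling. Under equal totals 4 genes of the list were called higher and 1 lower, and the all-gene share for both types was not computed there. The list's TELP N9 median was then -0.27, beside -0.96 over all tested genes.

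**Figure D5:**
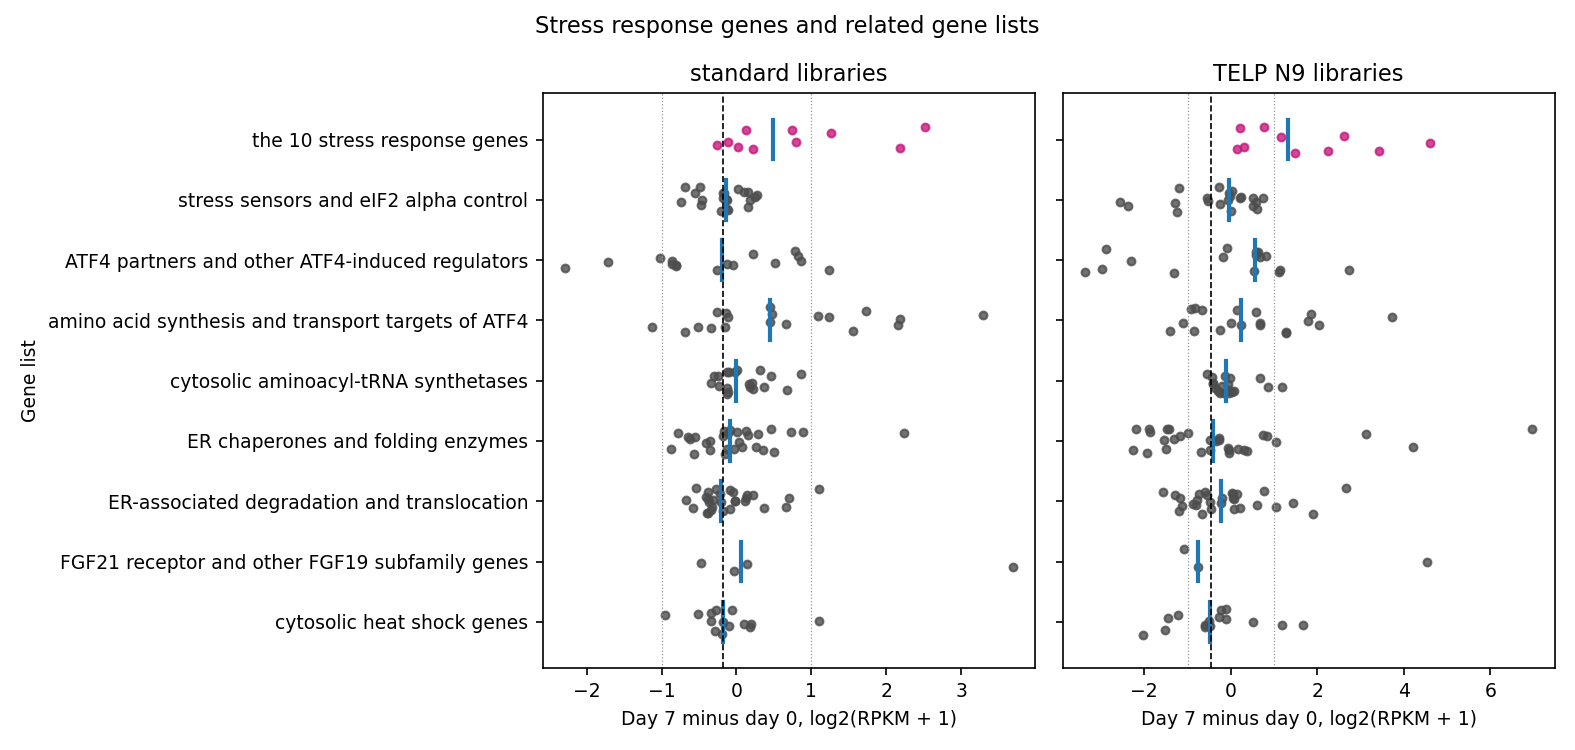
Day 7 minus day 0 difference in log2(RPKM + 1) (horizontal axes) of the 10 genes and of the tested members of 8 related gene lists (vertical axis), in the Std (left) and TELP N9 (right) libraries; each point is a gene. Blue bars are list medians, the dashed line is the median of all tested genes and dotted lines mark the size of a call; the 10 genes have the highest median in both panels, and Canx, listed at 0 in the TELP N9 day 0 library, is the rightmost chaperone on the right.

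Of 21 stress sensors and genes of eIF2 alpha control, 0 were called in both types, beside 7.33% higher and 6.03% lower over all genes. Their medians were -0.14 and -0.03, and 0 were called higher and 5 lower in the TELP N9 libraries alone, beside 29.9% lower over all genes. Among the sensors and kinases, Eif2ak3, which encodes PERK, went from 6.52 to 5.63 and from 6.89 to 5.67 RPKM, and Atf6 from 8.18 to 8.82 and from 5.97 to 6.08 RPKM. Ern1, which encodes IRE1, went from 4.07 to 2.69 and from 3.87 to 2.41 RPKM, below a call in both types. Eif2ak2, which encodes the kinase PKR, and Atf6b, a relative of Atf6, were called lower in TELP N9 (-1.20 and -1.25) and not in Std (-0.48 and -0.48). Of 20 cytosolic aminoacyl-tRNA synthetases, a textbook group of ATF4 targets, 0 were called in both types and the medians were -0.01 and -0.12. Gars was called higher in TELP N9 (1.18) and, under median of ratios, in both. Eif2ak2, Eif2ak3, Ern1, Atf6b, Gars, Canx, Ero1l and Mars were chosen after their values were seen.

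Of 16 tested ATF4 partners and other ATF4-induced regulators, 1 was called higher and 2 lower in both types, beside 7.33% and 6.03% over all genes. Cebpb, which encodes an early adipogenic factor and a partner of ATF4, went from 8.72 to 21.9 RPKM in the Std pair and from 16.1 to 113 RPKM in the TELP N9 libraries. Cebpd, its early adipogenic relative, differed by -1.72 and -2.31 on the log2 scale, and Trib2, the paralogue of Trib3, by -2.28 and -2.99. Trib1, the third paralogue, went from 1.40 to 0.996 and from 1.77 to 3.13 RPKM, so Trib3 was the 1 member of its family called higher in either type. Atf5, a close relative of Atf4, went from 71.4 to 127 RPKM and from 73.6 to 107 RPKM, below a call as deposited (0.82 and 0.53) and called higher in both under median of ratios.

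Among the ER and heat shock lists, calls in both types were few, beside 7.33% higher and 6.03% lower over all genes. Of 29 tested ER chaperones and folding enzymes, Dnajb9, a BiP cochaperone and target of XBP1, was the 1 gene called higher, from 20.9 to 102 RPKM and from 16.7 to 154 RPKM, and 0 were called lower. The chaperone medians were -0.09 and -0.41, and in the TELP N9 libraries 4 of 30 were called higher and 11 lower, beside 13.9% and 29.9% of all genes. The oxidoreductase gene Ero1l was among the higher ones there (9.15 to 186 RPKM, and 9.97 to 19.3 RPKM in Std, below a call). Of 29 tested genes of ER-associated degradation and translocation, 1 was called higher, Derl1, part of the retrotranslocation channel, from 22.4 to 49.0 RPKM and from 26.8 to 174 RPKM. Dnajb9 and Derl1 kept their calls under each scaling. Of 14 tested cytosolic heat shock genes the small chaperone gene Hspb8 alone was called higher (1.10 and 1.19), and it lost the call under equal totals.

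On the receiving side of FGF21, its coreceptor beta-klotho (Klb) was called higher in both types, from 0.0215 to 12.2 RPKM in the Std libraries, and from a listed 0 to 22.2 RPKM in the TELP N9 libraries (limma's adjusted p = 0.037). Klb passed the filter only through day 7 and could not be called lower, and its listed 0 can also be a failed estimate. The receptor Fgfr1 went from 66.5 to 47.6 RPKM in the Std pair and from 69.0 to 31.8 RPKM in the TELP N9 libraries. Fgfr4 and the related hormone gene Fgf15 were listed at 0 in all 6 libraries.

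The response elements printed at the start were then read against these calls. Of the 5 genes with the C/EBP-ATF core, 3 (Trib3, Asns and Fgf21) were called higher in both library types, and of the 5 without it, 0. Among the genes with the core, Atf3, Trib3 and Fgf21 were below 1 RPKM at day 0. These passed the filter only through day 7 and could hardly be called lower. The genes were chosen by name for known roles in the response, so this split is no independent test of the element. Over all tested genes with a matched window, the shares called higher in both types were nearly level. They were 7.58% of 211 genes with the core and 6.98% of 8025 without it. In the lists the core was in 5 of 12 matched synthetase windows (Aars, Gars, Iars, Tars and Yars), a list with 0 calls in both types, and in 3 of 17 amino acid gene windows, none of them among its 6 called genes. The ER stress response element was in 6 of 22 matched chaperone windows (Calr, Canx, Creld2, Dnajc3, Hsp90b1 and Pdia6), beside Hspa5, and none of these was called higher in both types.

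Genes with the most similar profile were sought among 7684 genes over the 5 libraries without N9_ss, by the root mean square difference of centred log2(RPKM + 1). Near to Atf4 were Nacc1 (0.084) and Ppp1r37 (0.10), and nearest to Ddit3 were Pold4 (0.032), Gpr137 (0.075) and Setd8 (0.083). For Trib3 they were Gys1 (0.095), Cox5a (0.12) and Slc25a34 (0.19), and for Hspa5 Gm5088 (0.093), Rnf10 (0.097) and Tatdn2 (0.097). Of the 7 other stress genes that average at least 5 RPKM, Sesn2 was the closest to Atf4 (0.18), at rank 58 of 7683 genes, while Trib3 was at rank 6857. These distances are descriptions of 5 libraries that differ in depth and type.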

How the data were processed

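RNA values came from 6 libraries of C3H10T1/2 cells, 1 per group. The authors deposited RPKM values for 24029 genes. Bowtie2, TopHat and Cufflinks and the mm9 build are named per the submitters' processing notes. The sources used here do not give their versions, the annotation, strand handling or the read total behind RPKM. The 17 chromatin samples of the series' 23 were not analysed here.

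From the deposited RPKM, differences of log2(RPKM + 1) were computed with Python 3.11.15 (numpy 2.4.6, pandas 2.3.3, scipy 1.17.1), with the filter and call size given above. The limma fit (limma 3.58.1, R 4.3.3, with intensity trend, false discovery rate 0.05) was tested on simulated data. Nothing says that libraries came from separate cultures, so its p-values measure only the spread between libraries, which may be technical. Where the libraries' low values (below 1 RPKM) stepped in whole reads, relative depth and whole reads were recovered for 5 of the 10 genes, as the smallest whole-number set within 0.02 of whole numbers. The tolerance did not hold for TELP N9 day 0, whose reads were rounded. The true reads are these or a whole multiple, which would narrow the intervals. Intervals are exact (Clopper-Pearson) at 95%.

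The genes, lists, markers and tests were chosen with earlier results of these data known. Named list genes are up to 4 per list called the same way in both library types, those with the largest mean difference, the family members of Trib3, Sesn2, Chac1, Atf4 and the ER sensor, and the 3 nearest profiles of Atf4, Ddit3, Trib3 and Hspa5 among genes averaging at least 5 RPKM. 1 gene that this rule names is not reported here. Promoter sequences are from RefSeq, matched by symbol. Protein features were not analysed here. The alternatives changed the pseudocount (0.1 RPKM), dropped the filter or raised it to 5 RPKM, and used 3 other scalings, N9_ss or T18 in place of N9, and limma.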

Additional observations from a re-analysis of the deposited data

Results flagged for a closer look

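Atf4 and Chac1 differed between the days in opposite directions in the 2 library types. The day 7 minus day 0 difference of Atf4 in log2(RPKM + 1) was 0.22 in the TELP N9 and -0.25 in the Std libraries. That of Chac1 was 0.31 in the TELP N9 and -0.11 in the Std libraries. With 1 library per day and type the difference between the types was not tested, and all 4 values are below the size of a call. Under equal totals both types gave a negative value for both genes, and the read ratio intervals of Chac1 included 1 in both types. Under median of ratios Atf4 stood at -0.06 in Std and 0.73 in TELP N9, and Chac1 at 0.04 and 0.77.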

How the results depend on the processing

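No paired analysis was possible because each RNA group holds 1 library, so that no replicate block could be fitted and no replicate left out. The count of genes called in the Std libraries was 3 or 4 except at a mean of at least 5 RPKM, where it was 1 because fewer genes were tested. The TELP N9 count of 6 ranged from 4 (equal totals) to 7 (median of ratios). With T18 in place of N9 it was 5, all lower. There the differences were -3.37 for Atf4, -1.98 for Ddit3, -0.54 for Trib3, -0.14 for Asns, -2.61 for Chac1, -3.57 for Sesn2, -2.87 for Hspa5 and -0.52 for Xbp1, and the cause was not tested. The share called over all genes was not computed for T18 against TELP N9 day 0. Against N9 at day 7, 83.4% of all 9753 tested genes were called lower in T18. The count called in both types was 3 or 4, but 1 at a mean of at least 5 RPKM, 0 with T18 in place of N9, 1 by limma with the library type as block and 0 by limma without trend (added after seeing the data). TELP N9 against Std at day 7 gave 5 calls, and 3 under equal totals. T18 against N9 gave 10, and 6 under quantile normalization, where Xbp1 stood at 0.17, as it did at 0.13 under median of ratios. The count at day 0 between library types was 0 under every setting tried. Depth limits the T18 values of Atf3, Trib3 and Chac1, which rest on 4, 3 and 2 recovered reads. Reads were recovered for 5 of the 10 genes, and Fgf21 is listed at 0 in T18.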
